A study of Macaca fascicularis with 6 samples.

Results

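The conjunctival and simple epithelial keratins were taken as KRT4, KRT7, KRT8, KRT13, KRT18 and KRT19, a list of 6 genes chosen by name. KRT4, KRT7 and KRT19 had a row in each of the 6 gene tables. These 3 genes, of 14623 in all tables together, are described here, and KRT8, KRT13 and KRT18, which had no row under these symbols, were not analysed here. The libraries were made from corneal epithelial cells of wild-type (WT) cynomolgus monkeys, Macaca fascicularis. The 3 groups were uninjured corneas (day 0), corneas on day 1 after injury and corneas on day 3 after injury, with 2 samples each. Cells were captured as single cells on the 10x Genomics Chromium controller, and full-length cDNA was made into libraries by HIT-scISOseq, a long-read single-cell method. All groups share the WT genotype, and the labels name neither the kind of injury nor the age of the animals, and they leave unsaid if both samples of 1 group are from 1 animal. The p-values given here cover no more than the spread between samples, which may be technical.

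Keratins are the intermediate filament proteins of epithelial cells, and a filament needs 1 type I and 1 type II partner. KRT4 and KRT7 are type II keratins, and KRT19 is a type I keratin. KRT4, whose usual partner is KRT13, is typical of non-cornified stratified linings such as the conjunctiva. KRT7, like the pair KRT8 and KRT18, is typical of simple and glandular epithelia and is also found in the conjunctiva. KRT19, the shortest keratin, occurs in the conjunctiva, at the limbus and in simple epithelia. The mature corneal epithelium is known by its own pair, KRT3 and KRT12, so KRT12 served as the corneal counterpart in every barcode. In the RefSeq gene order of this species (assembly T2T-MFA8v1.1) KRT19 lies beside KRT15, with KRT13 as the next gene along, KRT4 lies beside KRT3, and KRT8 lies beside KRT18.

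The gene tables held 1565 and 1417 barcodes in uninjured samples, 1482 and 1267 on day 1, and 1096 and 1068 on day 3. Total counts per sample ranged from 3733442 to 4928103, and the median count per barcode from 2462 to 4447, highest in the day 3 samples. Any 2 libraries shared at most 2 barcodes. Corneal markers were present in every sample, with KRT12 at 11772 and 11990 CPM (counts scaled to a common library size, here with TMM factors) in uninjured samples, 13612 and 14514 CPM on day 1, and 10414 and 10499 CPM on day 3. Barcodes were counted where at least 3 different markers of keratocytes, melanocytes, immune cells or vascular cells had a count. They numbered 0 to 4 per sample in the uninjured and day 1 samples and 25 and 18 on day 3, most of those by keratocyte markers. Only 2 of 8 keratocyte markers had a row in each uninjured sample, against 7 of 8 on day 3, so no uninjured barcode could reach 3. Immune markers in uninjured replicate 1 had the same limit, with 2 of 8. These counts therefore cannot be compared between uninjured and day 3 samples.

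KRT7 had the largest fold change of the 3 genes. Its level was 5.38 and 6.11 CPM in uninjured samples, 53.3 and 54.9 CPM on day 1, and 418 and 398 CPM on day 3. Both samples of a day lay close together. KRT7 rose 9.34-fold on day 1 against uninjured (log2 change 3.22, SE 0.135, adjusted p = 4.78e-09, edgeR quasi-likelihood test) and 70.5-fold on day 3 against uninjured (log2 change 6.14, SE 0.109, adjusted p = 9.24e-12). From day 1 it rose a further 7.54-fold by day 3 (log2 change 2.91, SE 0.0811, adjusted p = 6.25e-10). The uninjured level rested on 27 and 35 counts per sample.

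KRT19 had 1855 and 2021 CPM in uninjured samples, 1651 and 1526 CPM on day 1, and 3937 and 3800 CPM on day 3. Its lowest group was day 1 and its highest day 3. It fell by 0.29 on the log2 scale on day 1 against uninjured (SE 0.081, adjusted p = 0.00899, edgeR), and it rose 2.00-fold on day 3 against uninjured (log2 change 1.00, SE 0.0814, adjusted p = 1.26e-06) and 2.44-fold on day 3 against day 1 (log2 change 1.28, SE 0.0821, adjusted p = 2.22e-07). The day 1 fall missed the threshold without uninjured replicate 2 (log2 change -0.22, adjusted p = 0.0769).

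KRT4 had 643 and 821 CPM in uninjured samples, 1029 and 933 CPM on day 1, and 860 and 1039 CPM on day 3. Its replicates differed more than those of the other keratins, and the groups lay close together. KRT4 rose 1.34-fold on day 1 against uninjured (log2 change 0.42, SE 0.123, adjusted p = 0.0105, edgeR) and 1.30-fold on day 3 against uninjured (log2 change 0.38, SE 0.123, adjusted p = 0.0219). Levels on day 3 and day 1 did not differ beyond their spread (log2 change -0.05, SE 0.122, adjusted p = 0.763). Both calls rest on the scaling and on single libraries. With totals alone in place of TMM, the log2 changes were 0.08 on day 1 and -0.05 on day 3, and without uninjured replicate 1 they were 0.26 (adjusted p = 0.120) and 0.21 (adjusted p = 0.213). Without day 3 replicate 2 the day 3 change was 0.23 (adjusted p = 0.217).

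These calls stand against a wide background. Of 12294 genes tested, 62.2% passed on day 1 against uninjured, 55.2% on day 3 against uninjured and 59.3% on day 3 against day 1, so that a keratin passing the threshold is near the norm for these libraries. KRT12 itself had a log2 change of 0.24 on day 1 against uninjured (adjusted p = 0.0112, edgeR) and -0.18 on day 3 against uninjured (adjusted p = 0.0463), but with totals alone these values were -0.09 (adjusted p = 0.330) and -0.61 (adjusted p = 3.06e-05). The day 3 value of KRT12 missed the threshold with DESeq2 size factors in edgeR (adjusted p = 0.0644), in DESeq2 (adjusted p = 0.0613) and in edgeR without barcodes positive for markers of other cell types (adjusted p = 0.0729). Totals alone moved the median of all genes to -0.40 on day 1 and -0.46 on day 3, and the changes of KRT7 and KRT19 kept their direction and call under it. In sums over barcodes, fewer cells of a type and less RNA per cell cannot be told apart, so the shares of barcodes follow.

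**Figure D1:**
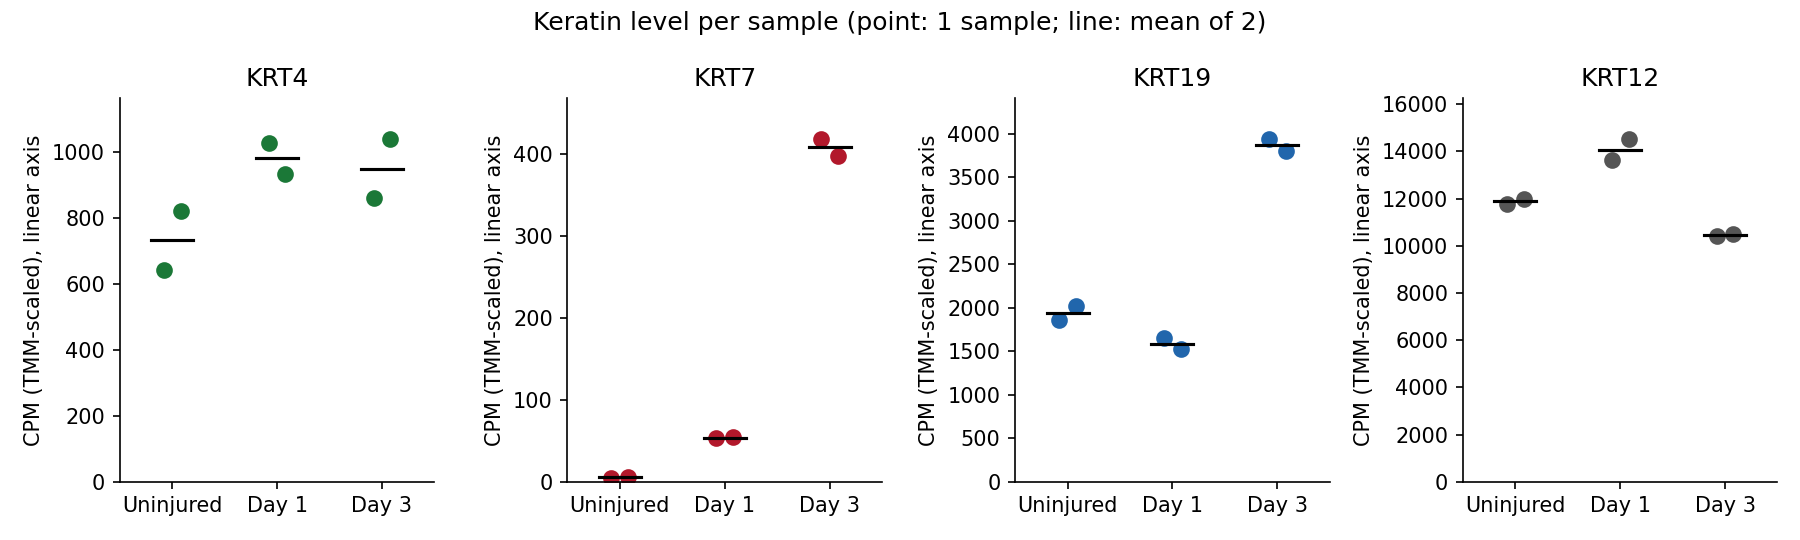
Level of KRT4, KRT7, KRT19 and KRT12 in CPM after TMM scaling, on linear axes from 0, with 1 point per sample and a line at the mean of the 2 samples. KRT7 stepped up on day 1 (54.1 ± 1.14 CPM) and day 3 (408 ± 14.1 CPM), KRT19 was lowest on day 1 and highest on day 3, and the KRT4 groups lay close together.

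For shares, each barcode was thinned to 1000 counts so that depth was equal, and barcodes with fewer counts were left out (77 and 69 in uninjured samples, 81 and 125 on day 1, 12 and 5 on day 3). KRT7 was detected in 0.470% and 0.890% of barcodes in uninjured samples, 3.43% and 3.15% on day 1, and 24.3% and 24.1% on day 3. The 95% Wilson intervals of each day lay apart from those of the other days, reaching 1.55% at most in uninjured samples, 2.29% to 4.51% on day 1 and 21.6% to 26.9% on day 3. Such intervals cover counting error only. Without thinning, KRT7 was in 45.1% and 44.6% of day 3 barcodes. With 2 samples a group, an exact permutation test of shares cannot go below p = 0.333 (two-sided), so differences in share between days are given as values.

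The counts of KRT7 in a barcode that had it stayed low. Per 1000 counts it averaged 1.14 and 1.00 in uninjured samples, 1.15 and 1.25 on day 1, and 1.68 and 1.56 on day 3. No barcode reached 10 KRT7 counts per 1000 on any day. The median was 1 in every sample, the least that a barcode counted as positive can have. Without thinning, the highest KRT7 count in a barcode was 2 and 3 in uninjured samples, 9 and 12 on day 1, and 23 and 29 on day 3.

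KRT19 behaved otherwise. It was in 52.5% and 53.9% of barcodes in uninjured samples, 29.8% and 29.2% on day 1, and 43.3% and 42.7% on day 3. Its share was lowest on day 1 and on day 3 remained under that of uninjured samples, while its level was highest on day 3. Barcodes with KRT19 held on average 4.23 and 4.50 counts per 1000 in uninjured samples, 3.93 and 4.16 on day 1, and 8.26 and 8.01 on day 3. Barcodes with 10 or more KRT19 counts per 1000 were 4.70% and 6.68% in uninjured samples, 2.21% and 2.10% on day 1, and 14.9% and 14.3% on day 3. On day 3, KRT19 was thus in a smaller share of barcodes than in uninjured samples, but with more counts in each.

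KRT4 was in 15.7% and 17.8% of barcodes in uninjured samples, 19.6% and 18.5% on day 1, and 17.5% and 17.4% on day 3, and the intervals of different days overlapped, apart from those of day 1 replicate 1 (17.6% to 21.8%) and uninjured replicate 1 (13.9% to 17.6%). The 10% of barcodes with the most KRT4 held from 81.6% to 88.8% of its counts, depending on the sample.

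**Figure D2:**
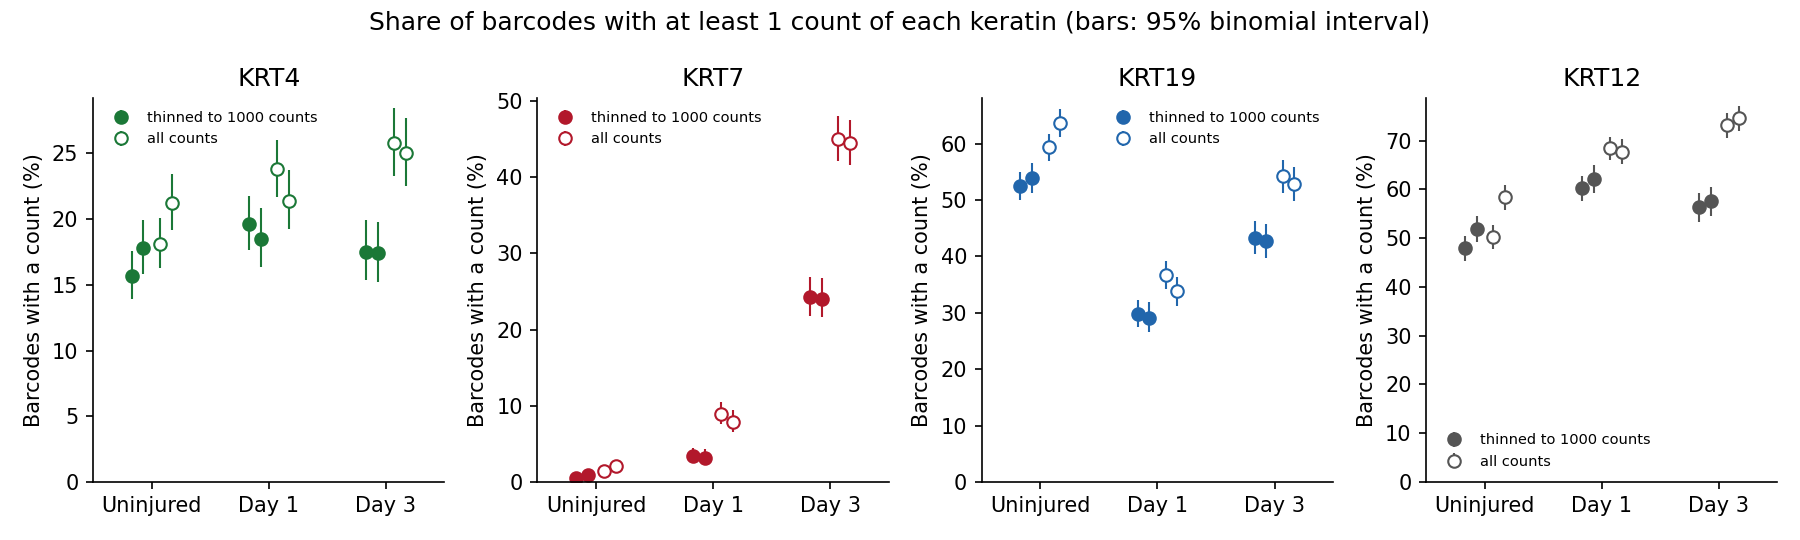
Share of barcodes with at least 1 count of KRT4, KRT7, KRT19 or KRT12 in each sample, in percent, with filled points for barcodes thinned to 1000 counts, open points for all counts and bars for the 95% Wilson interval. KRT7 was in 24.3% and 24.1% of thinned barcodes on day 3, against 0.470% and 0.890% in uninjured samples, KRT19 was lowest on day 1, and KRT4 stayed between 15.7% and 19.6%.

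Free RNA in droplets can give counts to cells that do not make a gene, so the 17 barcodes positive for immune or melanocyte markers were set beside the 7842 barcodes positive for no marker list, without thinning. Of the 17, KRT19 was in 4 (23.5%), against 50.1% of the rest. KRT7 was in 3 (17.6%), against 15.6% of the rest, and KRT4 in 4 (23.5%), against 22.3%. KRT12 was in 10 (58.8%), against 64.5%. Its level was 8908 CPM (of totals, without TMM) in the 17 barcodes, against 12192 CPM in the rest. Free RNA and RNA of epithelial cells caught in these barcodes cannot be told apart, so they give no measure of free RNA alone. The median depth was 3793 counts in the 17 barcodes and 3300 in the rest. The exact 95% intervals of the 17 were wide, 6.81% to 49.9% for KRT4 and KRT19 and 3.80% to 43.4% for KRT7. Pooling mixes the days, because KRT7 was in 1.71% of the rest in uninjured samples, 8.46% on day 1 and 44.3% on day 3. On day 3 alone, 9 barcodes were positive for immune or melanocyte markers, and KRT7 was in 22.2% of them, against 44.3% of the 2121 others. KRT4 was in 11.1% of the 9, against 25.8%, KRT19 in 22.2%, against 53.1%, and KRT12 in 55.6%, against 74.3%. With so few barcodes the exact intervals ran from 2.81% to 60.0% for KRT7 and KRT19 and from 0.281% to 48.2% for KRT4. The background of free RNA is thus not known from these barcodes, on 1 day or pooled. The results that follow rest on differences between barcode classes of the same sample.

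Co-detection with KRT12 was then compared on each day. If KRT4 and KRT12 fell on barcodes independently, 112 and 125 barcodes of the uninjured samples would have held both, and 36 and 53 did. The log2 odds ratio of KRT4 with KRT12 was -2.66 and -2.30 in uninjured samples, -3.54 and -3.65 on day 1, and -2.82 and -2.96 on day 3. That of KRT19 with KRT12 was -3.77 and -3.62 in uninjured samples, -4.26 and -4.25 on day 1, and -3.10 and -3.32 on day 3. Every sample was below 0, so both keratins shared a barcode with KRT12 less often than independence would give. Of barcodes with KRT19, 20.6% and 26.4% also had KRT12 in uninjured samples, 16.3% and 17.7% on day 1, and 28.6% and 28.0% on day 3, whereas KRT12 was in 77.6% to 81.7% of barcodes without KRT19 in every sample. These shares depend on depth, since without thinning KRT12 was in 59.1% and 60.4% of day 3 barcodes with KRT19, against 89.8% and 90.7% of those without it, and in 58.7% and 56.9% of day 3 barcodes with KRT4, against 78.2% and 80.5% of those without it.

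The log2 odds ratio of KRT7 with KRT12 was -0.24 and 0.34 in uninjured samples, with counting SEs of 1.03 and 0.81, since only 7 and 12 thinned barcodes had KRT7. It was -1.37 and -2.32 on day 1 and -1.83 and -2.26 on day 3. On day 3, 87 and 75 barcodes held KRT7 with KRT12, where 148 and 147 would be expected if independent. Thinned to 2000 counts, the odds ratio in uninjured samples was -0.85 and -1.32 (counting SEs 0.875 and 0.816). The relation in uninjured samples was not detectable at these depths.

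KRT12 counts were graded with the level of KRT19. On day 3 a barcode without KRT19 held on average 14.9 and 15.0 KRT12 counts per 1000, one with 1 to 9 KRT19 counts held 3.05 and 2.38, and one with 10 or more held 0.335 and 0.349. In uninjured samples the same steps were 20.5 and 21.8, then 2.86 and 3.09, then 0.700 and 0.367. The order was the same in every sample on day 1.

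The test of this contrast used sums over classes. In each sample, barcodes with at least 1000 counts were ranked by the share of KRT12 in their counts and divided into 3 equal classes. The top class (KRT12-high) was set against the bottom class (KRT12-low), with KRT12 left out of the table and the sample as a block. The lowest KRT12 share in the KRT12-high class was 1.69% and 1.75% in uninjured samples and 2.00% and 2.13% on day 1. On day 3 it was 0.739% and 0.861%. A change of the class difference between days thus compares classes of unlike KRT12 content. KRT12-low barcodes all had 0 KRT12 counts in uninjured samples. On day 1 and day 3 some of them had KRT12 counts, at a share of at most 0.0225%. Ties were broken by the order of barcodes in the data. In uninjured samples 718 and 536 barcodes had 0 KRT12 counts, and the KRT12-low classes took 496 and 449 of them in that order. On day 3 there were 287 and 270 such barcodes for KRT12-low classes of 361 and 354. In uninjured samples KRT12-high barcodes had a median of 3513.5 and 4461 counts and KRT12-low barcodes 1795 and 2030, while on day 3 the medians were 4494 and 4153 counts in KRT12-high barcodes and 4918 and 4612.5 in KRT12-low barcodes.

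KRT19 had 199 and 211 CPM in KRT12-high barcodes of uninjured samples, against 3546 and 3938 CPM in KRT12-low barcodes. On day 1 it had 19.5 and 26.7 CPM in KRT12-high barcodes, against 4015 and 4077 CPM in KRT12-low barcodes. On day 3 it had 286 and 196 CPM in KRT12-high barcodes, against 7194 and 7253 CPM in KRT12-low barcodes. The log2 difference between KRT12-high and KRT12-low barcodes was -4.19 in uninjured samples (adjusted p = 9.06e-51, edgeR). It was -7.47 on day 1 (adjusted p = 1.43e-55, edgeR) and -4.91 on day 3 (adjusted p = 3.55e-54, edgeR). The difference was larger on day 1 than in uninjured samples, by -3.28 on the log2 scale (SE 0.178, adjusted p = 1.02e-23), and larger on day 3 than in uninjured samples, by -0.72 (SE 0.115, adjusted p = 1.42e-06). The day 3 value turned to 0.44 (adjusted p = 0.00613) when only barcodes with at least 2000 counts were used.

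KRT4 had 41.1 and 30.4 CPM in KRT12-high barcodes of uninjured samples, against 1320 and 1475 CPM in KRT12-low barcodes. On day 1 it had 11.0 and 10.7 CPM in KRT12-high barcodes, against 2471 and 2504 CPM in KRT12-low barcodes. On day 3 it had 82.2 and 62.3 CPM in KRT12-high barcodes, against 1962 and 2459 CPM in KRT12-low barcodes. KRT4 was 39.4-fold lower in KRT12-high than in KRT12-low barcodes of uninjured samples (log2 difference -5.30, adjusted p = 1.64e-49, edgeR), 228-fold lower on day 1 (log2 difference -7.83, adjusted p = 8.48e-54) and 30.2-fold lower on day 3 (log2 difference -4.92, adjusted p = 1.69e-49). The gap was wider on day 1 than in uninjured samples by -2.53 (SE 0.277, adjusted p = 5.34e-11). On day 3 against uninjured it did not pass (0.38, SE 0.185, adjusted p = 0.167), and its sign and call depended on how the classes were drawn, from -0.86 with 2 equal classes to 1.28 with at least 2000 counts per barcode.

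KRT7 had 3.39 and 5.14 CPM in KRT12-high barcodes of uninjured samples, against 8.12 and 11.0 CPM in KRT12-low barcodes. On day 1 it had 18.9 and 14.5 CPM in KRT12-high barcodes, against 105 and 127 CPM in KRT12-low barcodes. On day 3 it had 59.8 and 47.8 CPM in KRT12-high barcodes, against 705 and 688 CPM in KRT12-low barcodes. Both classes of day 3 lay above both classes of uninjured samples. The log2 difference between KRT12-high and KRT12-low barcodes was -1.15 in uninjured samples (SE 0.425, adjusted p = 0.0296, edgeR), where it rested on 7 to 15 counts per class and missed the threshold without either uninjured replicate. It was -2.76 on day 1 (adjusted p = 3.49e-20) and -3.69 on day 3 (adjusted p = 5.38e-41). The gap was wider than in uninjured samples by -1.61 on day 1 (SE 0.501, adjusted p = 0.0172) and by -2.54 on day 3 (SE 0.488, adjusted p = 4.67e-05). With at least 2000 counts per barcode neither passed, at -0.70 for day 1 and -1.40 for day 3.

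Of 10927 genes tested between KRT12-high and KRT12-low barcodes, 33.8% passed in uninjured samples, 38.9% on day 1 and 23.4% on day 3. The change of the class difference passed for 16.6% of genes on day 1 against uninjured and for 16.8% on day 3 against uninjured. All 3 keratins passed within each day, all 3 passed in the change on day 1, and KRT7 and KRT19 passed in the change on day 3.

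**Figure D3:**
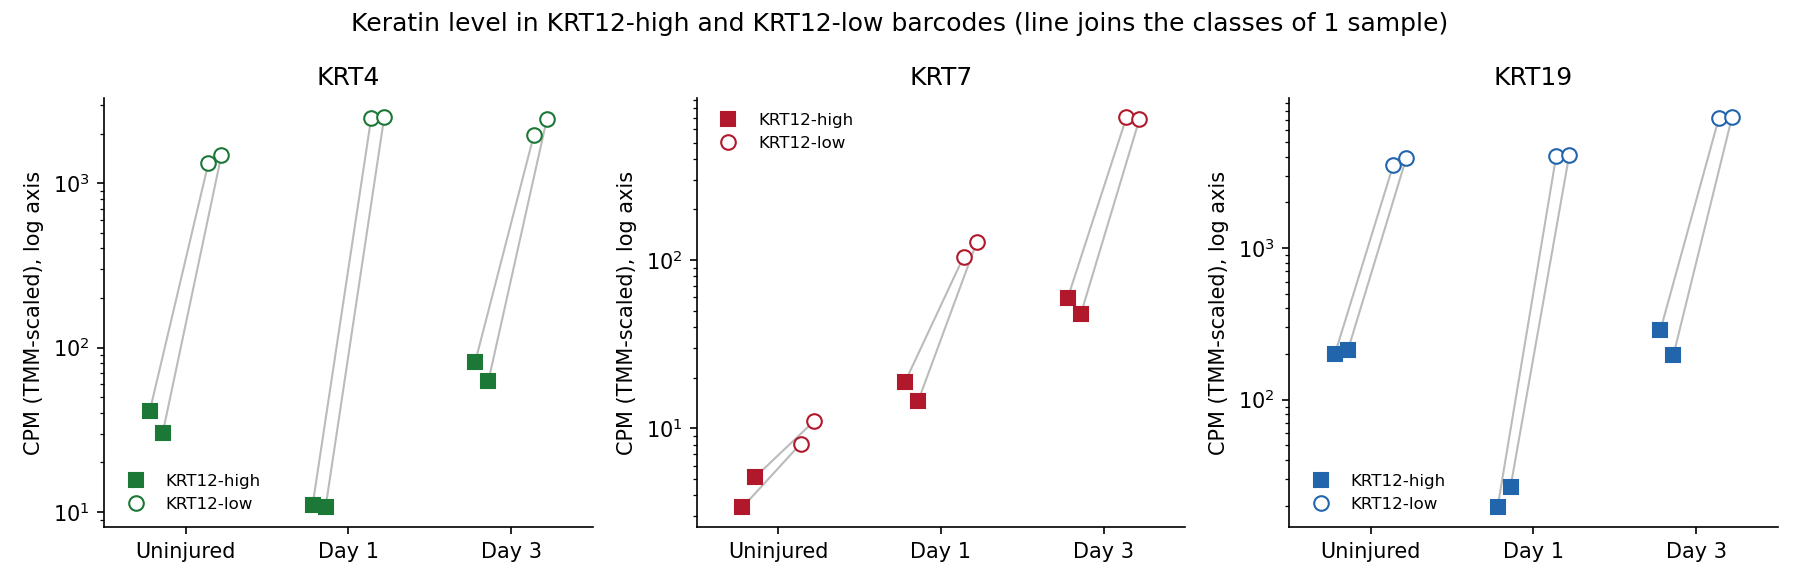
Level of KRT4, KRT7 and KRT19 in KRT12-high barcodes (squares) and KRT12-low barcodes (open circles) of each sample, in CPM on a log axis, with a line joining the classes of 1 sample. In every sample all 3 keratins were lower in KRT12-high than in KRT12-low barcodes, and the KRT4 and KRT19 gaps were widest on day 1.

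The keratins also shared barcodes with one another, in a pattern that differed by day. The log2 odds ratio of KRT4 with KRT19 was 2.97 and 2.71 in uninjured samples, 5.88 and 5.69 on day 1, and 1.74 and 1.96 on day 3. Of barcodes with KRT4, 87.1% and 85.4% had KRT19 in uninjured samples, 91.3% and 90.5% on day 1, and 67.4% and 69.7% on day 3. Among barcodes without KRT4, KRT19 was in 46.1% and 47.0% in uninjured samples, 14.8% and 15.3% on day 1, and 38.1% and 37.0% on day 3. The lower KRT19 share on day 1 thus lay in barcodes without KRT4. Barcodes with KRT19 but no KRT4 made up 38.8% and 38.6% of all barcodes in uninjured samples, 11.9% and 12.4% on day 1, and 31.5% and 30.6% on day 3. Those with both made up 13.6% and 15.2% in uninjured samples, 17.9% and 16.7% on day 1, and 11.8% and 12.1% on day 3.

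The higher KRT19 count on day 3 differed more from uninjured samples in barcodes without KRT4 than in those with it. Barcodes with KRT19 but no KRT4 averaged 3.23 and 3.30 KRT19 counts per 1000 in uninjured samples, 2.22 and 2.27 on day 1, and 7.70 and 7.25 on day 3. Barcodes with both averaged 7.08 and 7.54 KRT19 counts per 1000 in uninjured samples, 5.07 and 5.55 on day 1, and 9.78 and 9.91 on day 3.

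KRT7 was mostly in barcodes with KRT4 on day 1 and mostly in barcodes without it on day 3. The log2 odds ratio of KRT4 with KRT7 was 2.08 and 1.78 in uninjured samples, with counting SEs of 1.03 and 0.82, then 2.76 and 2.74 on day 1, and 0.39 and 0.61 on day 3. In uninjured samples 3 of 7 and 5 of 12 barcodes with KRT7 had KRT4, which is 42.9% and 41.7%. On day 1, 29 of 48 and 21 of 36 did, which is 60.4% and 58.3%. On day 3, 54 of 263 and 57 of 256 did, which is 20.5% and 22.3%. Barcodes with KRT7 but no KRT4 were 19.3% and 18.7% of all barcodes on day 3, against 1.36% and 1.31% on day 1. The share of all KRT7 counts that lay in barcodes with KRT4 was 44.4% and 57.1% in uninjured samples, 61.0% and 64.6% on day 1, and 24.5% and 25.0% on day 3.

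KRT7 stayed with KRT19 on both days after injury. Their log2 odds ratio was 1.00 and 0.70 in uninjured samples, with counting SEs of 1.10 and 0.84, then 2.17 and 3.37 on day 1, and 2.47 and 3.16 on day 3. Of barcodes with KRT7, 71.4% and 66.7% had KRT19 in uninjured samples, 64.6% and 80.6% on day 1, and 73.8% and 80.1% on day 3. KRT19 stood at 6946 and 6808 CPM (of totals, without TMM) in day 3 barcodes with KRT7, against 2476 and 2370 CPM in day 3 barcodes without it. The order of days in these odds ratios was the same when barcodes were thinned to 2000 counts, left unthinned or counted as positive from 2 counts for KRT4 with KRT19. For KRT4 with KRT7, day 3 was below day 1 under all of these, but the mean day 1 value was 1.34 when positives needed 2 counts.

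**Figure D4:**
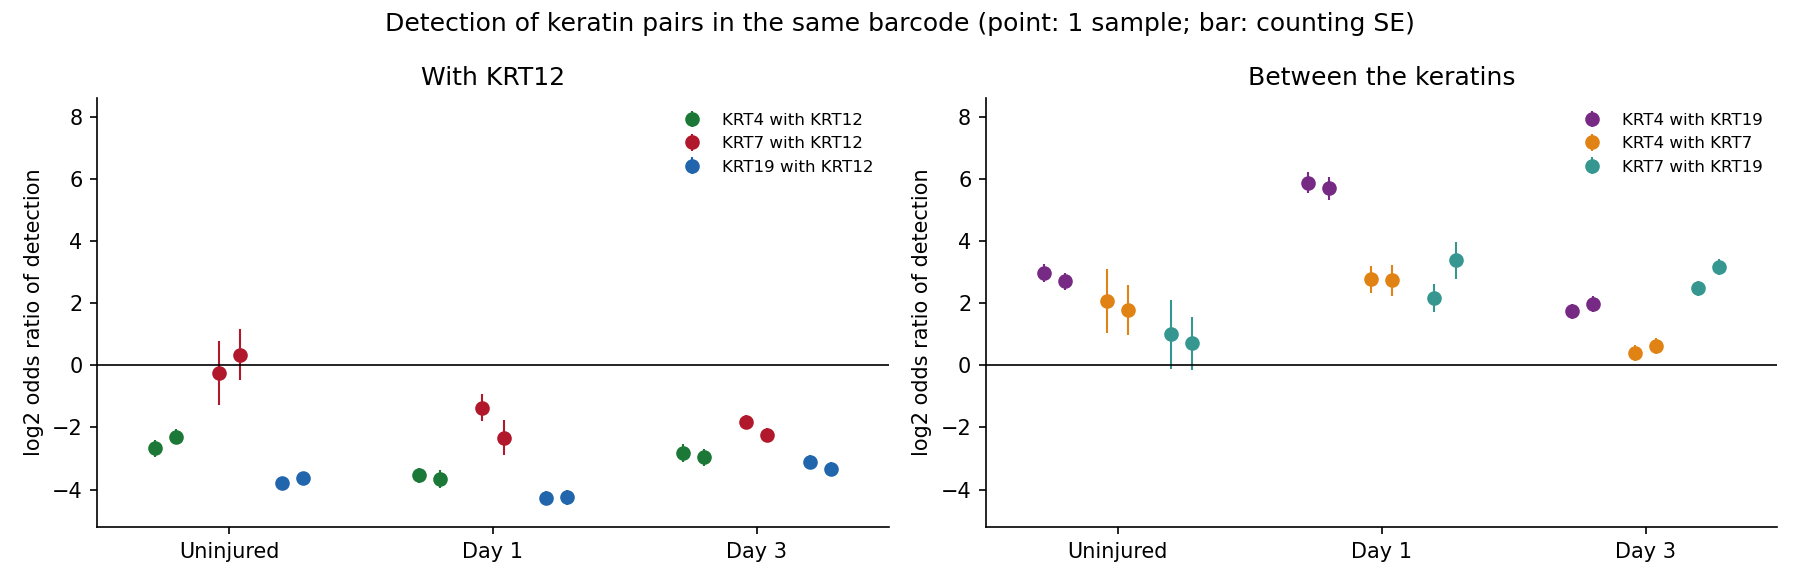
The log2 odds ratio of detecting 2 keratins in the same barcode, thinned to 1000 counts, for KRT4, KRT7 and KRT19 with KRT12 (left) and with one another (right), with 1 point per sample and its counting standard error. The pairs with KRT12 lie below 0 except for KRT7 in uninjured replicate 2, and KRT4 with KRT19 peaks on day 1 (5.88 and 5.69).

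**Figure D5:**
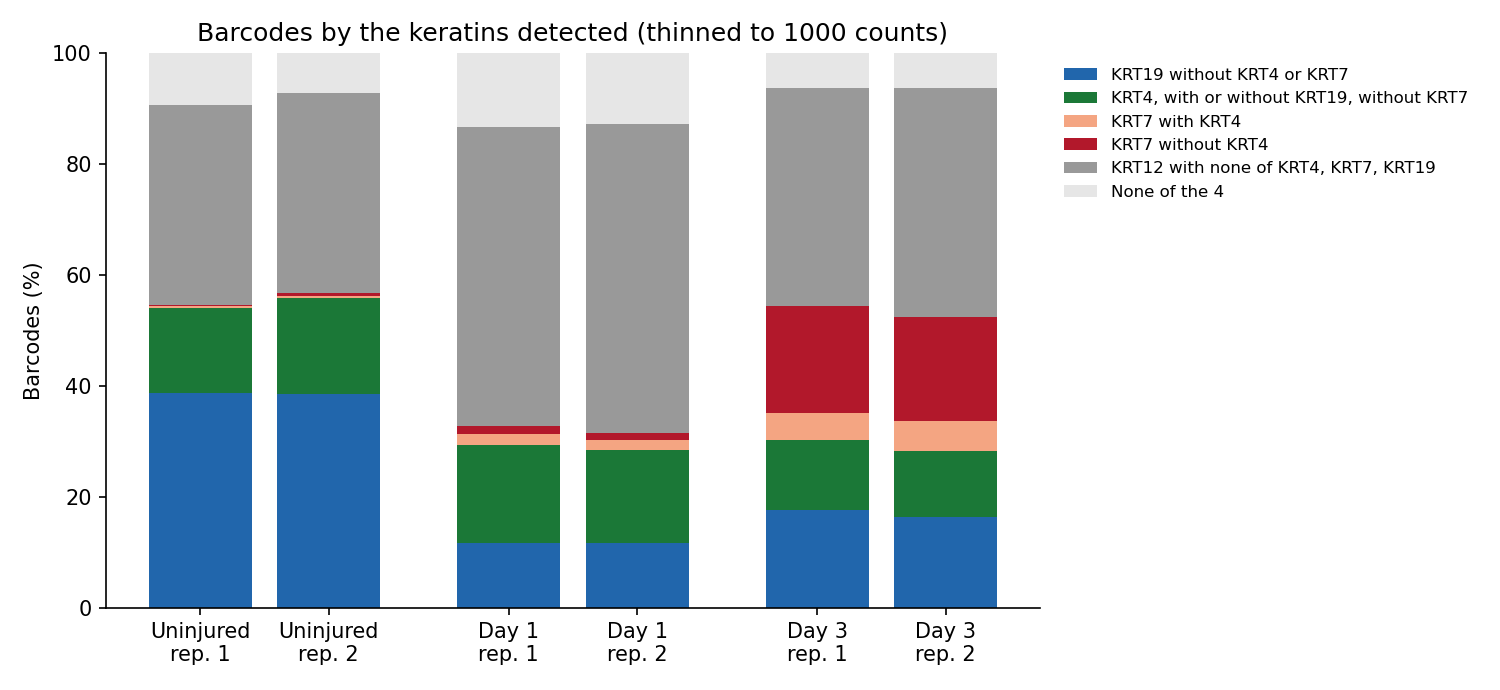
All thinned barcodes of each sample in percent, divided by the keratins detected, with 1 bar per sample. KRT19 without KRT4 or KRT7 made up 38.6% and 38.4% of barcodes in uninjured samples, 11.7% and 11.7% on day 1, and 17.6% and 16.3% on day 3. KRT7 without KRT4 made up 19.3% and 18.7% on day 3, where the median in barcodes with KRT7 was 1 KRT7 count.

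Barcodes with none of the 3 keratins but with KRT12 were 36.1% and 36.1% in uninjured samples, 54.0% and 55.7% on day 1, and 39.3% and 41.3% on day 3. All 3 keratins were detected together in 0.134% and 0.371% of barcodes in uninjured samples, 2.00% and 1.84% on day 1, and 4.06% and 4.99% on day 3.

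Markers of keratocytes, the stromal cells under the epithelium, were called on day 3 too, and their part in the keratin values was not tested beyond the comparisons given here. Of 8 markers 7 had a row in any gene table, and PDGFRA, which had no row under this symbol, was not analysed here. Of the 7, 4 were tested, and all 4 rose on day 3 against uninjured, where 55.2% of 12294 genes were called and 3545 rose. Of the 4, LUM and COL1A2 were at 0 in uninjured samples and so could only rise, and the count is no result about keratocytes. All 7 had a count in both day 3 samples, and 2 had one in both uninjured samples. Their summed level was 701 and 695 CPM (of totals, without TMM) on day 3, 189 and 183 CPM on day 1, and 643 and 499 CPM in uninjured samples, most of it decorin (DCN). On day 3 there were 34 barcodes with at least 3 of these markers, without thinning. Of these, 28 had KRT7 (82.4%, against 44.3% of the 2121 day 3 barcodes positive for no marker list) and 30 had KRT19 (88.2%, against 53.1%). KRT4 was in 2 (5.88%, against 25.8%) and KRT12 in 18 (52.9%, against 74.3%). Their median depth was 2777 counts, against 4297 in the others. By the rule of at least 3 markers, no keratocyte barcode could be left out of uninjured samples. When barcodes positive for any other cell type were left out, the day 3 log2 change against uninjured was 6.11 for KRT7, 1.00 for KRT19 and 0.39 for KRT4. Without doublets called by Scrublet, 5 to 15 per sample, these were 6.12, 1.00 and 0.37.

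The genes whose counts per barcode moved most like each keratin were ranked by the mean Pearson correlation over the 6 samples, computed across barcodes within each sample on log-normalised counts. These correlations share library and depth and are descriptions across barcodes. KRT4 was most like GSTA3, a glutathione transferase (mean r 0.80, from 0.70 to 0.87 by sample), and then S100A9 (0.67), AQP5 (0.65), S100A8 (0.63) and SLC6A14 (0.60). S100A8 and S100A9 form calprotectin, AQP5 is a water channel and SLC6A14 an amino acid transporter. KRT19 was most like GSTA3 (0.55), PIP (0.52), S100A9 (0.52), AQP5 (0.51) and KRT15 (0.51). KRT15 is a type I keratin of basal and limbal cells and the neighbour of KRT19 in the genome. The correlation of KRT19 with PIP, a secreted glycoprotein, ran from 0.35 to 0.71 by sample. KRT7 had weaker correlations, led by KRT19 (0.31, from 0.03 to 0.57 by sample), AQP5 (0.28), CP (0.26), SLC6A14 (0.26) and PIP (0.24), where CP is ceruloplasmin. KRT12 was last of 5376 genes for KRT19 (mean r -0.65) and last of 5377 for KRT7 (-0.23), and next to last for KRT4 (-0.40). For KRT7 with KRT12, r was 0.01 and -0.01 in uninjured samples, where KRT7 was in under 50 barcodes each, -0.15 and -0.18 on day 1, and -0.49 and -0.53 on day 3.

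The most alike genes were also low in KRT12-high barcodes. They were chosen by their likeness to these keratins over the same barcodes, so this is no separate result. GSTA3 had 24.5 and 22.5 CPM in KRT12-high barcodes on day 3, against 1666 and 1734 CPM in KRT12-low barcodes. AQP5 had 14.3 and 6.52 CPM in KRT12-high barcodes on day 3, against 1930 and 1616 CPM in KRT12-low barcodes. KRT15 and KRT19 parted in level over time, since KRT15 had 3537 and 3251 CPM in uninjured samples, 309 and 283 CPM on day 1, and 516 and 506 CPM on day 3. Within samples their correlation still ran from 0.41 to 0.57.

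Counts of a list are read beside those over all 12294 genes, of which 3751 rose and 3895 fell on day 1 against uninjured (62.2% called), 3545 rose and 3247 fell on day 3 against uninjured (55.2%), and 3750 rose and 3544 fell on day 3 against day 1 (59.3%). Among 18 other keratins 14 were tested. On day 1 against uninjured, 6 rose and 3 fell, with a median log2 change of 0.11 against -0.06 over all genes. On day 3 against uninjured, 11 rose and 2 fell, with a median of 2.53 against -0.03 over all genes. The stress keratins KRT6A and KRT16 were among those that rose, KRT6A to 14784 and 14258 CPM on day 3 against 119 and 107 CPM in uninjured samples, and KRT16 to 5940 and 5269 CPM on day 3 against 10.4 and 10.6 CPM in uninjured samples. KRT75 was at 0 in all uninjured and day 1 samples and had 2.76 and 2.45 CPM on day 3. KRT15 fell by 3.52 on the log2 scale on day 1 and by 2.73 on day 3 against uninjured (adjusted p = 2.26e-10 and 7.45e-10, edgeR). Between KRT12-high and KRT12-low barcodes, 12 other keratins were tested. Of these, 1 was higher and 7 lower in uninjured samples, and 4 were higher and 6 lower on day 1 and again on day 3. Over all 10927 genes, 1867 were higher and 1824 lower in uninjured samples (33.8% called). The same counts were 1952 and 2303 on day 1 (38.9%), and 1114 and 1444 on day 3 (23.4%). KRT14, a keratin of basal cells named here for every day after its values were seen, had 62.9 and 104 CPM in KRT12-high barcodes of uninjured samples, against 2950 and 2641 CPM in KRT12-low barcodes. On day 1 it had 135 and 142 CPM in KRT12-high barcodes, against 2975 and 2951 CPM in KRT12-low barcodes. On day 3 it had 15657 and 15962 CPM in KRT12-high barcodes, against 22895 and 20972 CPM in KRT12-low barcodes. On day 3 the log2 difference of KRT14 between KRT12-high and KRT12-low barcodes was -0.47 (adjusted p = 8.76e-09, edgeR), against -4.92 for KRT4 and -4.91 for KRT19.

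Of 20 mucosal and goblet cell genes 12 were tested. On day 1 against uninjured 11 rose and 0 fell, with a median log2 change of 2.53, and on day 3 against uninjured 11 rose and 1 fell, with a median of 2.46. On day 3 against day 1, 4 rose and 6 fell, with a median of -0.19. The alarmin S100A8 had 4279 and 4684 CPM on day 3 against 32.5 and 39.6 CPM in uninjured samples. PIGR, the polymeric immunoglobulin receptor, had 22.9 and 8.88 CPM on day 1 against 0 counts in uninjured samples. In KRT12-high against KRT12-low barcodes, 10 of these 12 genes were lower and 1 higher in uninjured samples and again on day 1. All 12 were lower on day 3. Over all 10927 genes, 1824 were lower in uninjured samples, 2303 on day 1 and 1444 on day 3, where 33.8%, 38.9% and 23.4% were called. Of 5 goblet cell markers, 3 had a row in any gene table, and MUC5AC and TFF3, which had no row under these symbols, were not analysed here. AGR2, a folding enzyme of mucus-secreting cells, had 555 and 527 CPM on day 1 against 336 and 383 CPM in uninjured samples (log2 change 0.59, adjusted p = 0.000115, edgeR). On day 1 AGR2 had 794 and 822 CPM in KRT12-high barcodes, against 366 and 301 CPM in KRT12-low barcodes. In uninjured samples it was also higher in KRT12-high barcodes (383 and 405 against 302 and 342 CPM). On day 3 it was lower in them (334 and 382 against 576 and 572 CPM). TFF1, a trefoil peptide, had 265 counts (58.4 CPM) in day 1 replicate 1 and 0 in the other 5 samples. SPDEF, a transcription factor of goblet cells, had 0 and 0 counts in uninjured samples, 9 and 4 on day 1, and 0 and 5 on day 3.

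Some lists have about as many genes called as the 62.2%, 55.2% and 59.3% of all genes, and for these the count is no result about the list. Against uninjured samples, they are the corneal genes and the other keratins on day 1 and the simple epithelial genes on day 3. The filament partners on day 1 and the corneal genes on day 3 exceeded these shares by few genes only. Their counts are not read as results either. Of 13 simple epithelial genes tested, 9 rose and 2 fell on day 1 against uninjured (median log2 change 0.79), 5 rose and 2 fell on day 3 against uninjured (median 0.08), and 3 rose and 9 fell on day 3 against day 1 (median -0.43). CLDN7, a tight junction claudin, had 1026 and 1102 CPM on day 1 against 294 and 309 CPM in uninjured samples, and 338 and 301 CPM on day 3. Of 13 filament partners tested, 6 rose and 4 fell on day 1 against uninjured (median 0.06), and 9 rose and 1 fell on day 3 against uninjured (median 0.46). Vimentin (VIM), the filament protein of mesenchymal cells, had 651 and 601 CPM on day 3 against 7.37 and 7.33 CPM in uninjured samples. Of 12 corneal genes, 4 rose and 3 fell on day 1 against uninjured (median -0.09), and 3 rose and 6 fell on day 3 against uninjured (median -0.16). Scaling changed these counts. With totals alone 1 corneal gene rose and 8 fell on day 1 and 2 rose and 9 fell on day 3, 3 simple epithelial genes rose and 6 fell on day 3, and the median of the other keratins on day 1 was -0.09.

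The isoform tables gave the transcripts behind these counts, in 2 naming systems that split the samples. Uninjured samples and day 1 replicate 1 listed several transcripts per gene, and day 1 replicate 2 and both day 3 samples listed only 1 full splice match (a transcript that matches a known one in full) for each of the 3 keratins, so isoform shares cannot be compared across that split. The day 3 isoform tables shared 701 of 1638 and 679 of 1337 barcodes with the gene tables. KRT19 was a full splice match for 97.6% and 97.5% of its isoform counts in uninjured samples and 97.7% in day 1 replicate 1. KRT4 was one for 94.3% and 94.7% in uninjured samples and 95.9% in day 1 replicate 1, and most of its remainder (3.02% to 5.06%) joined known splice sites in another combination. KRT7 stood apart, with 62 of 183 counts (33.9%) in day 1 replicate 1 from a transcript with at least 1 unknown splice site, against 5 of 21 (23.8%) and 7 of 28 (25.0%) in uninjured samples. In day 1 replicate 1 that transcript lay in 49 barcodes, of which 69.4% had KRT4 and 61.2% had KRT12, without thinning. The known KRT7 transcript lay in 81 barcodes there, of which 70.4% had KRT4 and 55.6% had KRT12.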

How the data were processed

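Single corneal epithelial cells of 6 cynomolgus monkey samples, 2 per group, were profiled with 10x Genomics capture and HIT-scISOseq. The deposited gene and isoform tables hold counts per feature and barcode, made by the authors with Cell Ranger among their tools, per the submitters' processing notes. The aligner and the genome build were not given in the sources used here, nor was the kind of reads (short or long) behind the gene tables.

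Counts were summed per sample and tested over all genes with edgeR 4.0.16 in R 4.3.3 (quasi-likelihood test, TMM scaling, filterByExpr, group only, all 6 samples sharing 1 estimate of the spread), with Benjamini-Hochberg adjustment and a threshold of 0.05. KRT12 classes were tested likewise over 12 sums with the sample as a block. DESeq2 1.42.0 was an alternative. Shares and odds ratios used Python 3.11.15 and numpy 2.4.6, with barcodes thinned to 1000 counts. Doublets called by Scrublet in scanpy 1.11.5 were kept, and left out in an alternative. The edgeR step was tested on simulated data.

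Replicates differed by more than sampling noise, by a chi-square divided by its degrees of freedom, which was 1.92 in uninjured samples, 4.50 on day 1 and 2.06 on day 3. Named genes are all keratins of the list, the 5 genes most like each, KRT12, and up to 3 called genes with the largest change per gene list. KRT14, DCN, TFF1 and SPDEF were named outside this rule, and listed genes with no row are named as such. The keratins and the lists were chosen with earlier results of these data known. Alternatives covered scaling, tool, filters, replicates, barcodes, class limits and thinning.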

Additional observations from a re-analysis of the deposited data

Results flagged for a closer look

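The gap between KRT12-high and KRT12-low barcodes differed between days in 5 cases, by the test of the difference itself in edgeR over all genes (adjusted p in the report). On day 1 against uninjured samples the change of the log2 difference was -2.53 for KRT4, -1.61 for KRT7 and -3.28 for KRT19. On day 3 against uninjured samples it was -2.54 for KRT7 and -0.72 for KRT19. With at least 2000 counts per barcode the KRT19 value on day 3 turned to 0.44, so its sign is not settled. The KRT7 values then were -0.70 on day 1 and -1.40 on day 3, and neither passed. In both samples of each group all 3 keratins were lower in KRT12-high than in KRT12-low barcodes.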

How the results depend on the processing

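Of the values for single keratins under alternatives, 354 kept their side of the threshold, 14 lost the call, 4 gained it and 3 turned. The 354 include changes of direction where neither value passed. One such case was KRT4 on day 3 against day 1, which ran from -0.19 to 0.091 with each replicate left out in turn. With totals alone, KRT4 had 0.084 on day 1 and -0.047 on day 3, both against uninjured. In classes, KRT7 in uninjured samples had -0.66 with 2 equal classes and -0.82 with KRT12-low as all barcodes at 0 KRT12, an alternative chosen after seeing the data. The class difference on day 3 against uninjured was -0.86 with 2 equal classes, 1.28 with at least 2000 counts and 0.62 with the zero class for KRT4, and with at least 2000 counts -1.40 for KRT7 and 0.44 for KRT19. That of KRT7 on day 1 was -0.70 with at least 2000 counts. The causes were not tested. DESeq2 called 4623, 3590 and 4317 genes on day 1 against uninjured, day 3 against uninjured and day 3 against day 1, where edgeR called 7646, 6792 and 7294. With each replicate left out in turn, KRT4 ran from 0.26 to 0.61 on day 1 and from 0.21 to 0.57 on day 3, and KRT19 from -0.35 to -0.22 on day 1. KRT7 between classes ran from -1.23 to -1.08 in uninjured samples, its class difference from -1.99 to -1.28 on day 1, and that of KRT4 from 0.029 to 0.76 on day 3. Calls between classes ran from 2456 to 3815 in uninjured samples, 2682 to 4387 on day 1 and 1564 to 2661 on day 3, and those of the class difference on day 1 from 1041 to 1905. Of the genes called, the share higher with totals alone was 29.1% on day 1 and 24.2% on day 3 against uninjured, where it was 49.1% and 52.2% with TMM. DESeq2 gave 64.1% on day 3 against uninjured. Between classes that share with totals alone was 61.9% on day 1 and 63.6% on day 3, where it was 45.9% and 43.5% with TMM, and for the class difference on day 1 it was 57.0%, where it was 40.5% with TMM. Of the odds ratios 15 stayed within 1 SD, 37 moved and 2 turned, both in uninjured samples: KRT7 with KRT12 was -1.09 when thinned to 2000 counts, and KRT7 with KRT19 was -0.24 when positives needed 2 counts. All 36 group shares of barcodes under another depth or count minimum moved by more than 1 SD. KRT7 on day 3 was in 24.2% of barcodes, but in 8.89% with at least 2 counts and 44.8% without thinning. The order of days changed for KRT4, at 24.4%, 24.1% and 21.3% in uninjured, day 1 and day 3 samples thinned to 2000 counts, but 19.7%, 22.6% and 25.4% without thinning.

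With the replicate number as a replicate block, KRT4 had a log2 change of 0.44 on day 1 and 0.38 on day 3 against uninjured, and no call of the 3 keratins changed. The deviations of same-numbered samples correlated at 0.096, -0.053 and -0.192, so the numbers are not taken to pair the samples. Depth limits KRT7 in uninjured samples, which had 27 and 35 counts.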
